A study of Mus musculus with 96 samples.

Results

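The stellate cell and matrix remodeling genes described here are 10 genes, Tgfb1, Sparc, Acta2, Lox, Loxl1, Loxl2, Mmp2, Mmp14, Timp1 and Timp2, out of 20155 genes with values in the deposited table. They were picked by name from known roles, with earlier results of these data in view. RNA from islets and from liver of the same 48 male C57BL/6N mice was sequenced. The mice were bought at 4 weeks of age and kept on a chow diet with 13.5% fat (CD) or on a high-fat diet with 60% fat (HFD), and 4 mice per diet were taken after 4, 8, 12, 16, 20 and 24 weeks. This gave 96 libraries in 24 groups of 4. Islets were released with collagenase and picked by hand, and liver was taken as whole tissue, so each library is a mixture of cell types. Values are FPKM, fragments per kilobase of transcript scaled to the mapped fragments of the library, and the sum of a library's FPKM lay between 892097 and 1278652 in islets and between 560016 and 672369 in liver. Read counts were not used here, so the counting error behind a single value is unknown.

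Hepatic stellate cells lie between the sinusoidal endothelium and the hepatocytes, store vitamin A in healthy liver, and on injury turn into contractile, matrix-producing myofibroblasts. Transforming growth factor beta 1, the product of Tgfb1, is held latent in the matrix and drives this change once released. The matrix that is laid down is then organized by matricellular proteins such as SPARC, crosslinked by lysyl oxidases, cleaved by matrix metalloproteinases, and protected from them by the tissue inhibitors of metalloproteinases. In islets, which hold little matrix inside, pericytes, fibroblasts and endothelial cells can express many of these genes. Which cells express each member was not tested here.

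On GRCm38, the build of the table, Tgfb1 lies on chromosome 7 from 25687002 to 25705077 on the plus strand, and Sparc on chromosome 11 from 55394159 to 55420080 on the minus strand. Acta2 lies on chromosome 19 (34240336 to 34255585, minus strand), Loxl1 on chromosome 9 (58287723 to 58313212, minus strand) and Loxl2 on chromosome 14 (69608692 to 69695834, plus strand). Mmp2 lies on chromosome 8 (92827291 to 92853421, plus strand) and Mmp14 on chromosome 14 (54431598 to 54442456, plus strand). Timp1 lies on chromosome X (20870166 to 20874737, plus strand) and Timp2 on chromosome 11 (118301061 to 118355411, minus strand). In the gene annotation, Timp1 lies inside Syn1, which is read from the opposite strand, with no exon bases in common. Exons of Lox and Loxl2 share bases with annotated genes on the opposite strand, exons of Loxl2 also share bases with Mir6950 on its own strand, and whether reads were counted by strand is not given in the sources used here, so the values of Lox and Loxl2 are uncertain to that extent.

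Promoter windows were looked up in the RefSeq table for GRCm38.p6, where 6 of the 10 members had an entry, and Lox, Loxl1, Loxl2 and Mmp2 had none. The 3 windows below are shown because Timp1 and Tgfb1 rose with HFD in liver while Mmp14 did not, and because no annotated exon lies in them. Each is the 250 bases before the gene's start, 5′ to 3′ on the gene's own strand (plus for all 3), and capitals mark GC boxes, the letters GGGCGG on either strand. The positions are chrX:20869916-20870165 for Timp1, which is within Syn1 and holds none of its exons, chr7:25686752-25687001 for Tgfb1 and chr14:54431348-54431597 for Mmp14.
Timp1: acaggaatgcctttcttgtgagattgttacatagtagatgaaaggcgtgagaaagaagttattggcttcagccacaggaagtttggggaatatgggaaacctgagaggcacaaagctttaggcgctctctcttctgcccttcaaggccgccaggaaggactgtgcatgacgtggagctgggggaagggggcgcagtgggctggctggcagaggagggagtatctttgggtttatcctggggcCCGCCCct
Tgfb1: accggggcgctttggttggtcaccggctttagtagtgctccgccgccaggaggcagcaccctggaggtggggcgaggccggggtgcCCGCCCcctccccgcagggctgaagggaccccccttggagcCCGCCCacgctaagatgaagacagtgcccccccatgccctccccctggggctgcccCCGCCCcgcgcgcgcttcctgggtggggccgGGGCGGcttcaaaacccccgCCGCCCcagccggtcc
Mmp14: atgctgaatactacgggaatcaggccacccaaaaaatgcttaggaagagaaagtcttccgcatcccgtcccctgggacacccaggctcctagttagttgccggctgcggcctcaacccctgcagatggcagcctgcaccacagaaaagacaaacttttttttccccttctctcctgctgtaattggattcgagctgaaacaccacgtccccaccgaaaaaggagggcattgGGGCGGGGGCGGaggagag
Timp1 held 1 GC box, Tgfb1 held 5 and Mmp14 held 2 that adjoin. Of the other 3 members with an entry, Timp2 held 1, and Sparc and Acta2 held 0. Among all 32851 windows of the same length, 32.7% held this motif. The AP-1 motif (TGANTCA), the TATA motif (TATAAA) and the strict CArG box (CC, then 6 letters A or T, then GG) were not found on either strand in any of the 6 windows. They were found in 6.75%, 12.4% and 1.47% of all windows. Looser forms of these motifs were not searched, so elements with other letters can lie in the 6 windows.

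Markers of the labelled tissues were present. Liver libraries held a mean of 31047 FPKM of Alb, and islet libraries 503888 FPKM of Ins2. Of the 15 stellate and fibroblast markers, 13 passed the filter in liver (at least 1 FPKM in at least 4 libraries), and all 15 had mean levels of at least 0.1 FPKM, with Dcn, a collagen-binding proteoglycan, the most abundant at 58.5 FPKM. In islets 9 of the 15 passed the filter, and Lrat, the retinol-esterifying enzyme that defines vitamin A-storing stellate cells, had a mean under 0.1 FPKM.

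Several liver libraries stood apart in markers of other cell types. The CD libraries of mice CD101 and CD106 (week 4) held 16.96 and 19.91 FPKM of the 10 endothelial markers together, where no other liver library was under 29.24. The bile duct keratin Krt19 was at 5.77 FPKM in mouse CD304 (week 12) and 4.57 FPKM in mouse CD502 (week 20), where no other liver library was above 1.56. Mouse HFD517 (week 20) had the highest sum of ductal markers, 245.67 FPKM against at most 62.23 elsewhere, almost all of it Spp1 (218.32 FPKM), and the lowest sum of hepatocyte markers (33162 FPKM). Its liver also held the highest value of Tgfb1, Sparc, Acta2, Lox, Loxl1, Loxl2, Timp1 and Timp2, while Mmp2 and Mmp14 were highest in other mice. Mice CD306 and CD407 had 3790 and 2570 FPKM of islet hormone markers in liver, against at most 452.18 elsewhere. Their part in the results was not tested singly, but each count of members below is also given without these 7 mice, a choice made after seeing the data. The 7 were picked by their liver libraries, and their islet libraries were left out with them. All but mouse HFD517 are CD, so these counts rest on fewer CD than HFD mice.

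In liver, 7 members rose with HFD over the 6 weeks. These were the inhibitors Timp1 and Timp2, the matricellular gene Sparc, the crosslinking enzymes Loxl1 and Loxl2, the growth factor Tgfb1 and the gelatinase Mmp2. Timp1 had the largest ratio, with a mean of 1.15 ± 1.01 FPKM in HFD and 0.223 ± 0.403 in CD mice (SD, n = 24 each), a ratio of 5.15, and Loxl2 had means of 1.01 and 0.499 FPKM, a ratio of 2.02. Acta2, the smooth muscle actin of contractile myofibroblasts, and Mmp14, a membrane-anchored metalloproteinase that activates Mmp2, did not pass, and Lox, the founding lysyl oxidase, stayed below 1 FPKM in all 96 libraries and was not tested. In bulk tissue, more cells of a type and more RNA per cell cannot be told apart.

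The test was limma on log2(FPKM + 1) with Benjamini-Hochberg adjustment over all genes tested, and a gene passed at an adjusted p under 0.05. Here 7 of the 9 members tested in liver passed, all higher. Of all 10879 genes tested, 42.6% passed, 35.8% higher and 6.78% lower, and the median log2 change of the 9 members was 0.35 against 0.0765 for all genes. A filter lets in low genes through the group where they are high: of the 13 liver libraries with at least 1 FPKM of Timp1, 11 were HFD, and for Loxl1, Loxl2 and Mmp2 it was 8 of 9, 10 of 12 and 15 of 18. With no filter all 10 members were tested and 8 passed, with Lox the added gene. With the 7 mice left out, 7 members passed as well. When libraries were scaled by median ratios, 8 passed (the 7, and Mmp14 as lower), while the share of higher genes among all that passed fell from 84.1% to 55.7%.

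**Figure D1:**
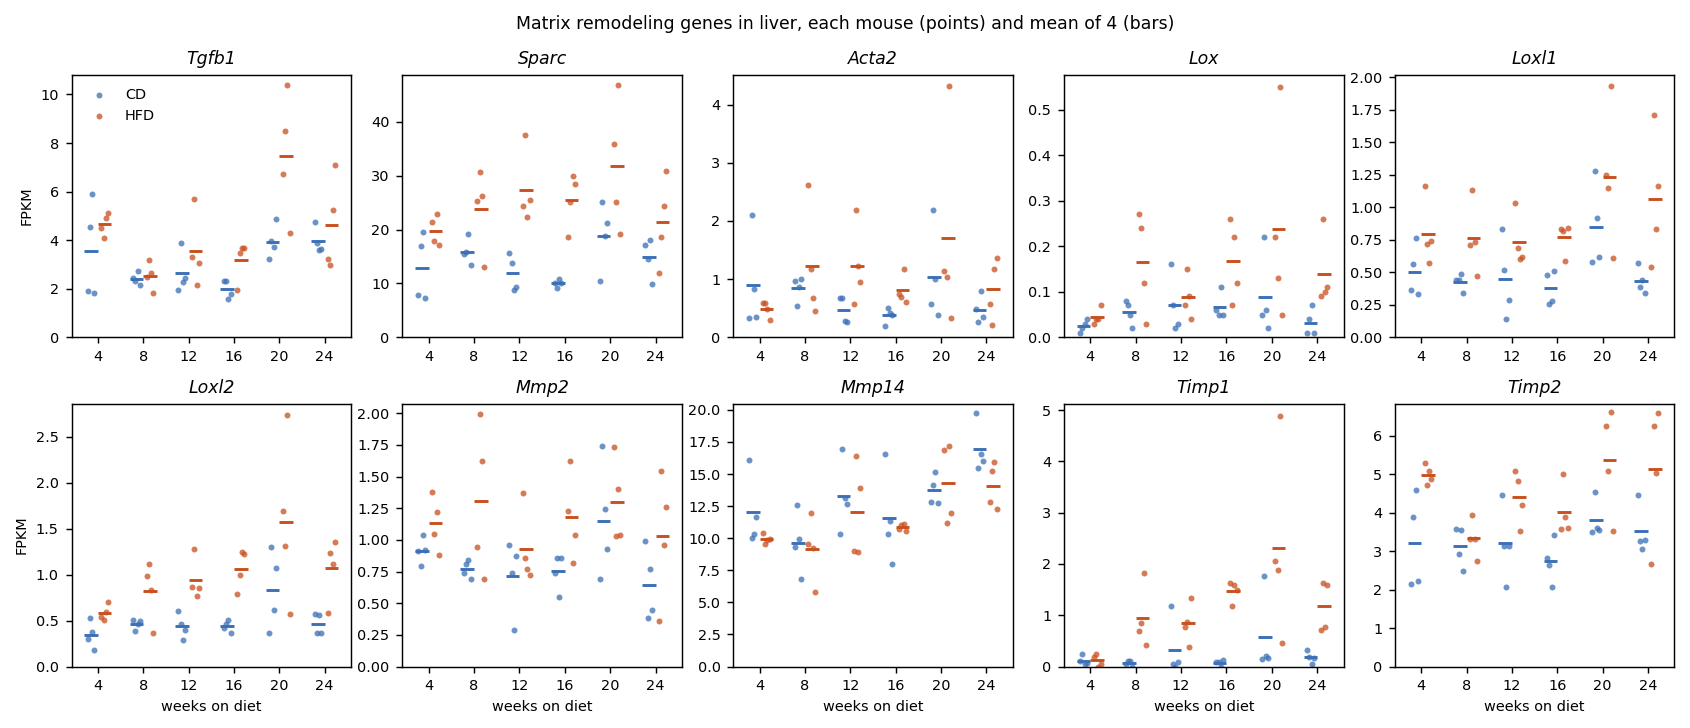
FPKM of the 10 genes in liver (y axes, each from 0) against weeks on diet (x axes), with CD in blue and HFD in orange, a point for each mouse and a bar for the mean of 4. For Sparc, Loxl2 and Timp1 the HFD mean was above the CD mean in all 6 weeks, and for Mmp14 in 1 of 6.

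Sparc encodes a collagen-binding protein of the matrix. Its liver level at week 4 was 7.32, 7.88, 16.92 and 19.63 FPKM in CD and 17.06, 17.91, 21.33 and 22.87 FPKM in HFD mice. At week 8 it was 13.34, 15.38, 15.75 and 19.22 in CD, and 13.1, 25.38, 26.25 and 30.66 in HFD. The low CD values of week 4 are those of mice CD101 and CD106, and the low HFD value of week 8 is mouse HFD217, below every CD mouse of that week. At week 12 the CD mice had 8.7, 9.43, 13.72 and 15.7 FPKM and the HFD mice 22.37, 24.36, 25.43 and 37.56. At week 16 the CD mice had 9.1, 10.04, 10.1 and 10.85 and the HFD mice 18.59, 25.1, 28.43 and 30. The diets did not overlap in these 2 weeks. How many of all genes were apart in a week was not counted, here or for the members below. At week 20 the values were 10.45, 18.76, 21.25 and 25.04 in CD and 19.18, 25.13, 35.97 and 46.8 in HFD, and at week 24 they were 9.92, 14.47, 17.05 and 18.09 in CD and 11.88, 18.56, 24.39 and 30.91 in HFD. The HFD mean was higher in every week, with overlap in 4 of 6. By limma, the week 12 log2 change was 1.15 ± 0.21 (SE; adjusted p = 0.0149). For week 16 it was 1.25 ± 0.14 (limma, adjusted p = 0.000825), and 0.79 ± 0.12 over all weeks (adjusted p = 1.22e-06). The call at week 12 was lost without mouse CD308, with an adjusted p of 0.0501.

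Timp1 encodes a secreted inhibitor that blocks most metalloproteinases and is a widely used marker of liver fibrosis. At week 4 the diets overlapped, with 0.05, 0.06, 0.1 and 0.24 FPKM in CD and 0, 0.05, 0.19 and 0.24 in HFD mice. From week 8 on every HFD mean was higher. At week 8 the CD mice had 0, 0.05, 0.1 and 0.11 FPKM, and the HFD mice 0.42, 0.69, 0.84 and 1.82. At week 12 the CD mice had 0, 0.05, 0.08 and 1.19 and the HFD mice 0.38, 0.78, 0.87 and 1.34. At week 16 the CD mice had 0, 0.09, 0.09 and 0.13, and the HFD mice 1.19, 1.49, 1.59 and 1.62. These groups did not overlap at weeks 8 and 16, and at week 12 they overlapped through mouse CD304 alone. At week 20 the CD mice had 0.14, 0.17, 0.21 and 1.76 and the HFD mice 0.45, 1.88, 2.06 and 4.88. At week 24 the CD mice had 0.04, 0.16, 0.19 and 0.33 and the HFD mice 0.72, 0.78, 1.58 and 1.62. Week 24 had no overlap. The highest HFD value of week 20 (4.88 FPKM) is mouse HFD517, which also stood apart in markers, and the high CD value of that week is mouse CD502. Thus the 2 CD libraries above 1 FPKM of Timp1 are the 2 with high Krt19. The limma change over all weeks was 0.74 ± 0.11 (adjusted p = 8.47e-07). At week 16 it was 1.20 ± 0.09 (adjusted p = 6.43e-05), where Timp1 was tested only because the HFD mice passed 1 FPKM.

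Timp2, the inhibitor that also takes part in Mmp2 activation by Mmp14, was more evenly expressed. Its mean was 4.54 ± 1.16 FPKM in HFD and 3.27 ± 0.771 in CD livers (SD, n = 24 each), a log2 change of 0.37 ± 0.08 (limma, adjusted p = 0.000148). All 4 HFD mice were above all 4 CD mice at week 4 (4.73 to 5.3 against 2.14 to 4.59 FPKM) and at week 16 (3.59 to 5 against 2.08 to 3.43 FPKM), and the diets overlapped in the other 4 weeks.

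The crosslinking enzymes were lower in level and shared the direction. Loxl2 in liver was at 0.29, 0.4, 0.46 and 0.6 FPKM in CD and 0.77, 0.85, 0.87 and 1.28 FPKM in HFD mice at week 12. At week 16 it was 0.37, 0.42, 0.46 and 0.51 in CD and 0.79, 0.99, 1.22 and 1.25 in HFD mice. The diets did not overlap in these weeks or at week 24, where CD mice had 0.36 to 0.57 and HFD mice 0.58 to 1.35 FPKM. Loxl2 was under the filter in liver in each of these weeks and was not tested there. Its change over all weeks was 0.40 ± 0.07 (limma, adjusted p = 4.7e-06). Loxl1, which acts mainly on elastin, was at 0.507 ± 0.246 FPKM in CD and 0.893 ± 0.365 in HFD livers (SD, n = 24 each), with a change of 0.32 ± 0.06 (limma, adjusted p = 6.66e-05) and no overlap at week 16 only. The levels of Lox were 0.0562 ± 0.0491 FPKM in CD and 0.14 ± 0.118 in HFD livers (SD, n = 24 each), where 2 decimals leave at most 2 digits. With no filter its change was 0.11 ± 0.03 (limma, adjusted p = 0.00502).

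Tgfb1 was at 3.09 ± 1.17 FPKM in CD and 4.345 ± 2.11 in HFD livers (SD, n = 24 each), a change of 0.35 ± 0.10 (limma, adjusted p = 0.00404). The diets overlapped in all 6 weeks. The HFD mean was largest at week 20, when the values were 3.21, 3.73, 3.96 and 4.88 FPKM in CD and 4.29, 6.73, 8.51 and 10.38 in HFD mice. The value of 10.38 FPKM is mouse HFD517, whose liver library stood apart in markers. The week 4 values of CD mice were split, at 1.83 and 1.89 in mice CD106 and CD101 and at 4.53 and 5.91 in the other mice. With the 7 mice left out the change of Tgfb1 was 0.24 (adjusted p = 0.0346).

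Of the 2 metalloproteinases, Mmp2 passed and Mmp14 did not. Mmp2, a gelatinase made by stromal cells, was at 0.825 ± 0.287 FPKM in CD and 1.15 ± 0.384 in HFD livers (SD, n = 24 each) and changed by 0.23 ± 0.07 (limma, adjusted p = 0.00657), with overlap in every week. Mmp14 was far more abundant, at 12.9 ± 3.23 FPKM in CD and 11.7 ± 2.9 in HFD livers, and its change of -0.12 ± 0.08 did not pass (limma, adjusted p = 0.209). It was lower in HFD in 5 of 6 weekly means, with overlap in every week. Acta2 had a mean of 0.685 ± 0.513 FPKM in CD and 1.05 ± 0.895 in HFD livers, with a change of 0.24 ± 0.12 (adjusted p = 0.105). Its highest value was 4.31 FPKM in mouse HFD517, and its diets were apart only at week 16 (0.2 to 0.51 FPKM in CD and 0.61 to 1.18 in HFD mice).

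In single weeks few members passed in liver. Members that reached the filter numbered 5, 4, 4, 5, 9 and 4 at weeks 4, 8, 12, 16, 20 and 24, and the calls were Sparc at week 12 and Sparc and Timp1 at week 16. Timp1 was tested at week 16 only because the HFD mice passed 1 FPKM, so the filter favoured that call. Of all genes tested, 0.0506%, 7.49%, 10.6%, 7.43%, 2.47% and 0.837% passed in these 6 weeks in turn. In the weeks with 0 calls, 2 members at week 4 and 2 at week 20 had an unadjusted p under 0.05, and 0 at weeks 8 and 24. A fit of all 12 liver groups together gave 6 calls over the weeks in place of 3, and leaving out the 7 mice gave 4. With median ratio scaling the share of higher genes among all that passed went from 88.6% to 62.7% at week 12 and from 90.8% to 79.1% at week 16, and the members had 3 calls as before. The HFD effect of late weeks (16, 20 and 24) was compared with that of early weeks (4, 8 and 12). By limma 0 of the 9 members passed in this contrast, against 0.175% of all genes, and 0 passed without the mean-variance trend or without the 7 mice. Timp1 alone had an unadjusted p under 0.05 there, with a late minus early difference of 0.57 ± 0.22 (adjusted p = 0.435).

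In islets 3 members passed and none of them rose. Mmp14, Loxl1 and Timp2 fell with HFD over the 6 weeks. The HFD mean was lower in 6 of 6 weeks for Mmp14 and in 5 of 6 for Loxl1 and Timp2. At week 24 it was higher for Loxl1 (0.435 against 0.315 FPKM) and Timp2 (12.5 against 10.6 FPKM), with overlap. Mmp14 was at 1.69 ± 0.456 FPKM in CD and 1.285 ± 0.381 in HFD islets (SD, n = 24 each), and its change was -0.23 ± 0.06 (limma, adjusted p = 0.00156). Loxl1 was at 0.626 ± 0.3 FPKM in CD and 0.415 ± 0.3 in HFD islets, a change of -0.20 ± 0.05 (adjusted p = 0.00123), and Timp2 at 11.8 ± 1.9 against 10.6 ± 1.93 FPKM, a change of -0.14 ± 0.06 (adjusted p = 0.0386). The changes of the other 5 tested members did not pass, with 0.14 ± 0.06 for Sparc (adjusted p = 0.0656), 0.11 ± 0.05 for Loxl2 (adjusted p = 0.0642), -0.18 ± 0.08 for Mmp2 (adjusted p = 0.0652), -0.05 ± 0.05 for Tgfb1 (adjusted p = 0.457) and 0.02 ± 0.09 for Acta2 (adjusted p = 0.862). Lox and Timp1 were under 1 FPKM in every islet library and were not tested.

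Of the 8 members tested in islets, 3 passed, all lower. Of all 12378 genes, 38.6% passed, 16.6% higher and 22.0% lower, so the members called are 3 of 8 against 38.6% of all genes, no more than the background. Which members passed changed with the settings and with single mice. When Ins1 and Ins2, which held most of the islet signal, were left out and the rest rescaled, the median of all genes moved from -0.00909 to 0.15, Timp2 turned to 0.03 (adjusted p = 0.674), and Sparc (0.33) and Loxl2 (0.30) passed as higher, while Mmp14 (-0.17) and Loxl1 (-0.28) stayed lower and passed. Under this rescaling the share of higher genes among all that passed in islets went from 43.1% to 86.9%. Without the 7 mice, picked by liver markers and all CD but HFD517, only Mmp14 passed. Timp2 then had a change of -0.15 (limma, adjusted p = 0.0628) in place of -0.14, and Loxl1 no longer reached the filter. The part of the fewer CD islets in this was not tested. With no filter 2 passed, and Timp2 had the same change of -0.14 (adjusted p = 0.0524). With median ratio scaling 5 passed, the 3 and Sparc and Loxl2 as higher. Leaving out mouse CD106 alone left 1 call in place of 3, and the call of Timp2 was lost without any of 19 mice.

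**Figure D2:**
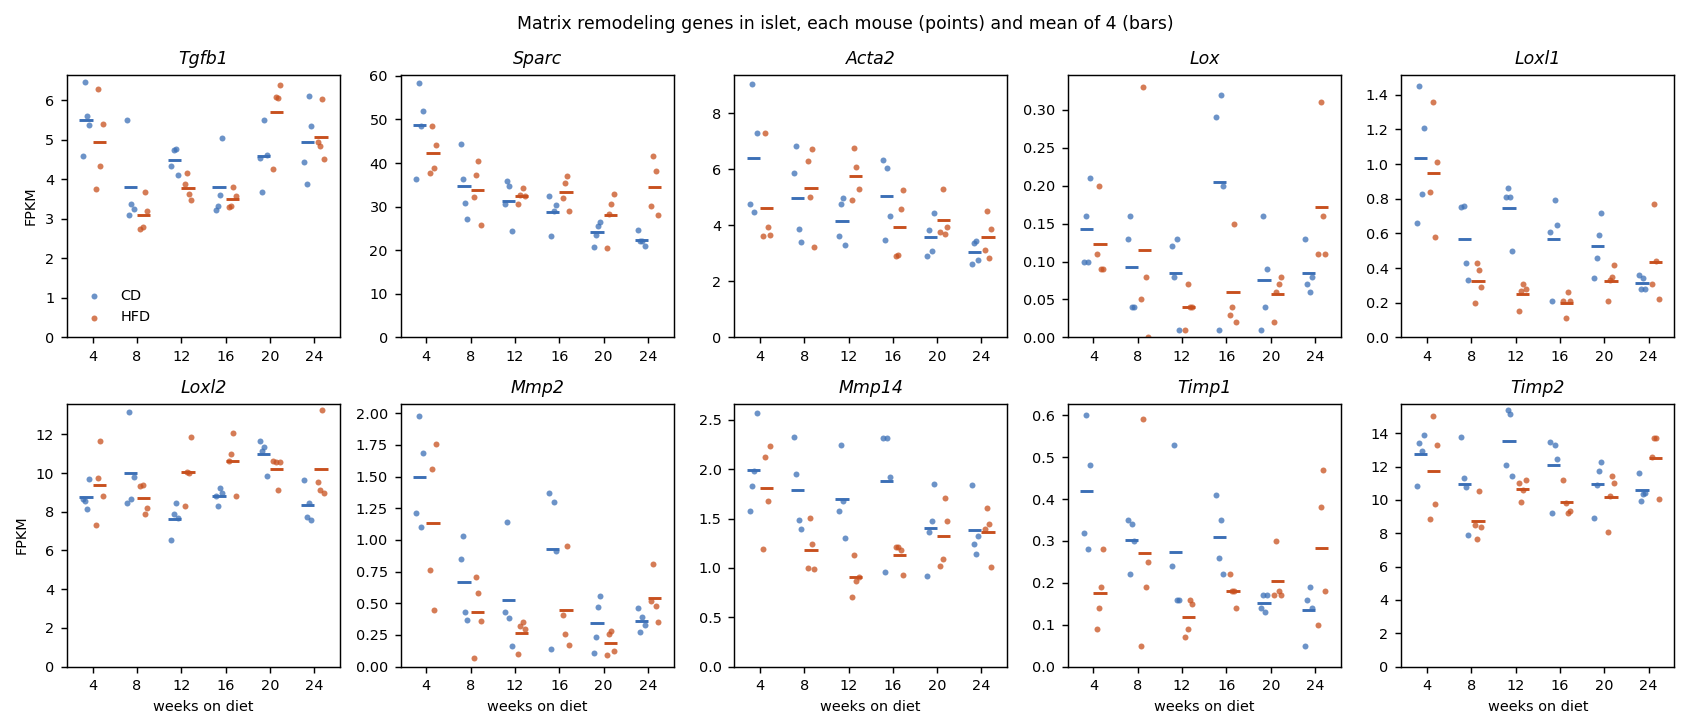
FPKM of the 10 genes in islets (y axes, each from 0) against weeks on diet (x axes), with CD in blue and HFD in orange, a point for each mouse and a bar for the mean of 4. The CD mean of Sparc went from 48.8 FPKM at week 4 to 22.4 at week 24, while that of HFD mice was 34.5 at week 24.

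Mmp14 in islets was at 1.3, 1.58, 1.68 and 2.25 FPKM in CD and 0.7, 0.87, 0.91 and 1.13 FPKM in HFD mice at week 12. No value overlapped, and the change was -0.50 ± 0.12 (limma, adjusted p = 0.0114). Without mouse CD306 that call was lost (adjusted p = 0.0615). At week 8 the values were 1.39, 1.49, 1.95 and 2.33 in CD and 0.99, 1, 1.24 and 1.51 in HFD mice, and at week 16 they were 0.96, 1.92, 2.32 and 2.32 in CD and 0.93, 1.18, 1.21 and 1.21 in HFD mice. The groups overlapped through a single mouse in each of these weeks. At weeks 20 and 24 the means were 1.4 and 1.39 FPKM in CD and 1.32 and 1.36 in HFD mice, within the spread of either group. Loxl1, the elastin-directed crosslinker, was at 0.5, 0.81, 0.81 and 0.86 FPKM in CD and 0.15, 0.27, 0.28 and 0.31 in HFD mice at week 12, where the diets were apart. Sums of markers differed in the same week. The acinar sum was 65340 to 157622 FPKM in CD and 10120 to 47492 in HFD islets, and the endocrine sum 599190 to 646384 in CD and 787719 to 928398 in HFD islets, both without overlap. The stellate and fibroblast sum was 38.2 ± 12.7 FPKM in CD and 23.4 ± 3.88 in HFD islets (SD, n = 4 each), with overlap, and the part of these in the Mmp14 and Loxl1 values was not tested.

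Sparc in islets fell over time on chow. CD islets held 36.32, 48.42, 51.99 and 58.4 FPKM at week 4 and 20.92, 22.02, 22.07 and 24.56 FPKM at week 24. HFD islets held 37.79, 38.74, 44.23 and 48.57 FPKM at week 4 and 28.01, 30.16, 38.22 and 41.61 FPKM at week 24. CD values of the last week were thus below every CD value of the earliest week, and at week 24 all HFD mice were above all CD mice. The sums of endothelial markers and of contractile genes were apart in the same direction in these islets. The endothelial sum was 203.09 to 256.37 FPKM in HFD and 182.78 to 195.2 in CD mice, and the contractile sum 88.24 to 120.59 and 66.72 to 76.71 FPKM. The ductal sum was 230.83 to 272.19 in HFD and 195.08 to 213.65 FPKM in CD mice, but without Spp1, which is also in the matrix list, it overlapped at 153.2 to 194.48 and 159.59 to 187.57 FPKM. The stellate and fibroblast sum overlapped, at 20.67 to 34.25 and 23.04 to 37.25 FPKM, and the part of any of these in the Sparc values was not tested. The change of Sparc with HFD at week 24 was 0.59 ± 0.11 (limma, adjusted p = 0.0052), and the late minus early difference of the HFD effect was 0.38 ± 0.12, which did not pass (adjusted p = 0.0769). In that contrast 0 of the 8 islet members passed by limma, with or without the mean-variance trend, against 3.16% of all genes, as without the 7 mice, and 2 (Sparc and Tgfb1) had an unadjusted p under 0.05.

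Single weeks in islets gave 2 calls, Mmp14 at week 12 and Sparc at week 24. Members tested numbered 8 at week 4 and 6 in each later week. Of all genes, 0.0% passed at week 4 (0 of 11569 by limma, with 854 at an unadjusted p under 0.05), and 5.27%, 4.53%, 8.45%, 4.74% and 8.3% passed in the later weeks in turn. At the weeks with 0 member calls the members with an unadjusted p under 0.05 numbered 0 in weeks 4 and 20, 1 in week 8 and 3 in week 16. The weekly calls rose to 4 with median ratio scaling, to 7 without Ins1 and Ins2 and to 4 in a fit of all 12 islet groups, and without the 7 mice there was 1. Without Ins1 and Ins2 the median of all genes at week 12 moved from 0.00802 to 0.463, the share of higher genes from 48.1% to 97.3%, and Mmp14 to -0.32 (limma, adjusted p = 0.0961). With median ratio scaling the share at week 24 went from 79.1% to 51.9%.

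With time on chow, 5 of the 8 tested islet members fell. Over the CD groups, the fitted change from week 4 to week 24 was -0.99 ± 0.13 for Sparc (limma, adjusted p = 1.89e-07), -0.72 ± 0.18 for Acta2 (adjusted p = 0.00181), -0.70 ± 0.17 for Mmp2 (adjusted p = 0.00108), -0.48 ± 0.10 for Loxl1 (adjusted p = 0.000378) and -0.31 ± 0.12 for Mmp14 (adjusted p = 0.0382). Loxl1 reached 1 FPKM in 4 islet libraries only, 2 CD and 2 HFD, all of week 4, so the filter let it in through the week in which it was high. Its change with no filter was -0.48 (adjusted p = 0.000514). Of all genes, 11.2% fell, and the share of higher genes among those that passed was 69.6%, against 52.3% with median ratio scaling and 51.1% without Ins1 and Ins2. Acta2 in CD islets was at 4.47, 4.77, 7.3 and 9.07 FPKM at week 4 and at 2.63, 2.76, 3.37 and 3.45 at week 24, which do not overlap. Mmp2 was at 1.1, 1.21, 1.69 and 1.98 FPKM at week 4 and at 0.27, 0.33, 0.39 and 0.46 at week 24, which do not overlap either. Tgfb1, Loxl2 and Timp2 had trends of -0.03, 0.04 and -0.19 that did not pass, though Timp2 passed with median ratio scaling (-0.25, limma, adjusted p = 0.0418), which made 6 calls. With no filter Mmp14 did not pass (adjusted p = 0.056) and Timp1 did (-0.30, adjusted p = 0.00293). Mean sums of stromal and vascular markers in CD islets were lower at week 24 than at week 4 as well (SD, n = 4 each). The stellate and fibroblast sum went from 47.4 ± 13.4 to 29.7 ± 6.88 FPKM, with overlap. The endothelial sum went from 229.2 ± 10.7 to 190.4 ± 5.76 FPKM, but was at 189.8 by week 8 and at 205.1 at week 20. The contractile sum, at 85.8 ± 14.3 and 71.2 ± 4.17 FPKM with overlap, was highest at week 16 (93.6 FPKM). The part of these sums in the trends was not tested. The fall of Mmp14 was lost without any of 8 mice and without the 7 mice, which left the 3 calls of Sparc, Acta2 and Mmp2, with Loxl1 under the filter. In the chow livers 1 of 9 members passed (2 without the 7 mice, with Acta2 at -0.56): Mmp14 rose by 0.52 ± 0.16 (adjusted p = 0.0133), from 9.98, 10.33, 11.69 and 16.13 FPKM at week 4 to 15.47, 16.01, 16.6 and 19.78 at week 24, which overlap through a single mouse. Of all liver genes 15.7% rose. Each week is a separate set of mice.

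The order of levels per transcript length differed between tissues in CD mice. In islets Sparc (31.7 ± 10.2 FPKM, SD, n = 24) was followed by Timp2 (11.8 ± 1.9), Loxl2 (9.1 ± 1.5), Acta2 (4.54 ± 1.63), Tgfb1 (4.52 ± 0.966) and Mmp14 (1.69 ± 0.456), with Mmp2, Loxl1, Timp1 and Lox under 1. Acta2 and Tgfb1 were within their spread of each other, as were Mmp2 and Loxl1. In liver Sparc (14.1 ± 4.77) and Mmp14 (12.9 ± 3.23) were within their spread, followed by Timp2 (3.27 ± 0.771) and Tgfb1 (3.09 ± 1.17), also within their spread, and the other 6 members had means under 1.

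Between tissues, 5 members were higher and 1 was lower in CD islets than in CD liver, of 9 tested. Loxl2 differed by 2.75 ± 0.06 (limma, adjusted p = 4.33e-58), with every CD islet library at or above 6.55 and every CD liver library at or below 1.3 FPKM. Acta2 (1.72), Timp2 (1.59), Sparc (1.13) and Tgfb1 (0.47) were also higher in islets, and Mmp14 was lower by a log2 difference of -2.35 ± 0.07 (adjusted p = 2.05e-47). Loxl1, Mmp2 and Timp1 did not pass, but Loxl1 (0.14) and Timp1 (0.17) did without the 7 mice, which gave 8 calls. Of all 13346 genes tested, 66.5% were higher and 28.5% lower in islets, so most genes differed between the tissues. The size of these differences depends on insulin: without Ins1 and Ins2 the median of all genes moved from 0.639 to 1.76, Mmp2 went from -0.13 to 0.61, and Mmp14 stayed lower at -1.26, and the share of higher genes among those that passed went from 70% to 88.2%. With median ratio scaling the median was 0.276, that share was 59%, and Tgfb1 no longer passed (0.10, adjusted p = 0.23), while Mmp2 passed as lower (-0.32, adjusted p = 3.94e-05). The 5 higher and 1 lower members thus became 4 and 2 with median ratio scaling, and 8 and 1 without Ins1 and Ins2, where Mmp2 (adjusted p = 7.86e-07), Loxl1 and Timp1 were added as higher.

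The HFD effect was lower in islets than in liver for 7 of the 9 members tested, and higher for 0. The difference of the effects was -0.81 ± 0.12 for Timp1 (limma, adjusted p = 2.78e-08), -0.65 ± 0.14 for Sparc, -0.53 ± 0.08 for Loxl1, -0.51 ± 0.10 for Timp2, -0.41 ± 0.11 for Mmp2, -0.40 ± 0.11 for Tgfb1 and -0.29 ± 0.08 for Loxl2. Timp1 reached 1 FPKM in 0 islet and 13 liver libraries, 11 of them HFD, so the filter let it in mainly through HFD livers. With no filter its difference was -0.81 (limma, adjusted p = 4.38e-08). Acta2 (-0.22) and Mmp14 (-0.11) did not pass, and the count was 7 without the 7 mice. Of all genes, 35.5% had a lower effect in islets, and the share with a higher effect among those that passed was 19.2%, against 36.2% with median ratio scaling and 67.4% without Ins1 and Ins2. For Loxl1 and Timp2 the sign of the effect differed between the tissues in the FPKM as deposited, with a fall in islets and a rise in liver, and for Timp2 the islet change turned to 0.03 without Ins1 and Ins2. Without Ins1 and Ins2, 5 of the 7 passed, and Loxl2 and Tgfb1 did not.

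**Figure D3:**
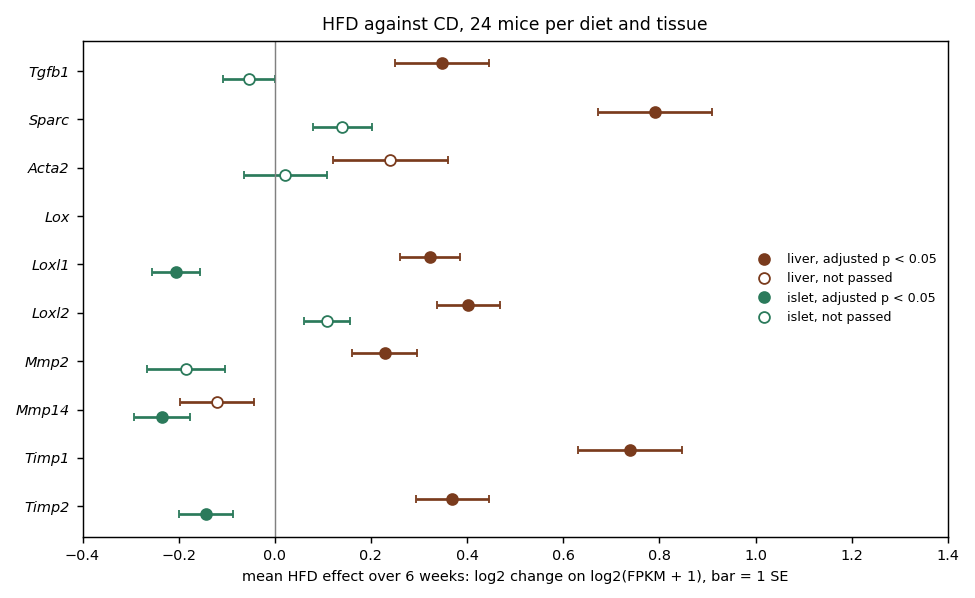
Mean HFD effect over the 6 weeks (x axis, log2 change on the log2(FPKM + 1) scale) for each member (y axis) in liver (brown) and islets (green), as the estimate with 1 SE. Filled points passed at an adjusted p under 0.05, which holds for 7 liver and 3 islet estimates, and Lox in both tissues and Timp1 in islets have no point because they were not tested.

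Of 20 matrix and matricellular genes, 17 were tested in liver and 15 rose, with a median change of 0.60 against 0.0765 for all genes, of which 35.8% rose and 6.78% fell. Those with the smallest adjusted p were the basement membrane genes Col4a1 (3.91 ± 1.4 FPKM in CD, 7.72 ± 3.52 in HFD), Col4a2 and Nid1, and the fibrillar collagen Col3a1 changed by 1.31. Of 12 crosslinking and collagen-modifying enzymes, 8 were tested, 6 rose and 1 fell (median 0.26), led by the transglutaminase Tgm2 (30.2 ± 9.76 in CD, 50.8 ± 23.7 FPKM in HFD), the collagen chaperone Serpinh1 (3.99 ± 2.42 against 8.12 ± 3.61 FPKM) and the lysyl hydroxylase Plod1. Bmp1, which removes the carboxyl propeptide of procollagen, fell by 0.16. Of 20 other metalloproteinases and inhibitors, 8 were tested, 6 rose and 1 fell (median 0.22). The macrophage elastase Mmp12 was at 0.181 ± 0.116 FPKM in CD and 3.07 ± 3.35 in HFD livers (SD, n = 24 each). Adamts1 and Adamts2 were next, and the membrane-anchored inhibitor Reck fell by 0.25. Some genes of these lists, Mmp12 among them, reached 1 FPKM in HFD livers only, so the filter let them in through the diet in which they were high. With no filter 18 of 20 matrix genes rose, 8 of 12 crosslinking genes rose and 1 fell, and 10 of 20 metalloproteinases and inhibitors rose and 1 fell, where 25.8% of all 18453 genes rose and 4.68% fell.

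Of 27 TGF-beta pathway genes, 20 were tested in liver, 8 rose and 0 fell, with a median of 0.13, and the 8 of 20 are near the 35.8% of all liver genes that rose. Thbs1, a matrix protein that can activate latent TGF-beta, went from 0.21 ± 0.134 to 0.938 ± 0.877 FPKM, the secreted target Tgfbi from 12.7 ± 4.05 to 18.3 ± 5.68 FPKM, and Ltbp3, which holds the latent form in the matrix, from 0.526 ± 0.182 to 0.767 ± 0.21 FPKM (SD, n = 24 each). Thbs1 reached 1 FPKM in HFD livers only, and with no filter 11 of the 27 rose, where 25.8% of all liver genes did. In islets 26 of the 27 were tested, 5 rose and 11 fell (median -0.06), where 16.6% of all islet genes rose and 22.0% fell. Thbs1 rose there too, by 0.62 ± 0.09 (limma, adjusted p = 1.49e-06), while the signal transducer Smad3 and the ligand Tgfb2 each fell by 0.27. Tgfb2 was low in level, at 0.774 ± 0.209 FPKM in CD and 0.478 ± 0.212 in HFD islets (SD, n = 24 each). With no filter 5 of the 27 rose and 10 fell in islets, where 10.8% of all islet genes rose and 20.1% fell.

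In liver 10 of the 13 tested stellate and fibroblast markers rose and 0 fell (median 0.36), where 35.8% of all genes rose, led by Pdgfrb, the receptor for platelet-derived growth factor B (1.42 ± 0.389 FPKM in CD, 2.44 ± 0.799 in HFD), Lum and Dcn, and their summed level was 99.1 ± 23.9 FPKM in CD and 141 ± 32.2 in HFD livers. Of the contractile genes 6 of 7 tested rose, led by Tpm2 (2.35 ± 1.14 to 6.03 ± 2.47 FPKM), Rgs5 and Tpm1. With no filter 9 of 15 and 6 of 11 rose, where 25.8% of all liver genes did. In islets 5 of 9 tested stellate and fibroblast markers fell and 1, Pdgfrb, rose (median -0.33), where 22.0% of all islet genes fell and 16.6% rose, and with no filter 8 of 15 fell and 1 rose, where 20.1% of all 19861 genes fell and 10.8% rose. Reln was at 1.33 ± 0.649 in CD and 0.35 ± 0.298 FPKM in HFD islets, and Hand2 at 1.06 ± 0.401 and 0.6 ± 0.404 FPKM. The summed level of the 15 markers was 37.6 ± 12.8 FPKM in CD and 27.7 ± 11.4 in HFD islets (SD, n = 24 each). Of the contractile and pericyte genes Rgs5 (27.7 ± 6.32 to 37.3 ± 12.3 FPKM), Cspg4 and Myl9 rose in islets, and 0 of 9 fell (3 and 1 of 11 with no filter). Of the collagen-modifying enzymes of islets 5 of 9 tested rose and 1 fell (5 and 3 of 12 with no filter), led by P4ha2 and Plod1 with Tgm2 lower, and of 16 matrix genes tested in islets over the 6 weeks 0 rose and 2 fell, Col6a3 and Eln, a share under the 22.0% of all genes that fell (3 of 20 fell with no filter). At week 24 alone the summed matrix genes were higher in HFD islets, at 122.06 to 185.66 FPKM against 79.14 to 93.43 in CD, without overlap. Spp1, also a ductal marker and left out in a step chosen after seeing the data, was at 67.5 ± 31.2 FPKM in HFD and 29.4 ± 5.23 in CD islets of that week (SD, n = 4 each), a large part of the difference in means, and without it the sums were 69.62 to 107.92 and 53.42 to 62.95 FPKM, still apart. Of the other metalloproteinases and inhibitors 2 of 6 tested rose (Mmp12, Mmp24) and 2 fell (Mmp15 and Reck), against 2 and 7 of 20 with no filter, beside the same 10.8% and 20.1% of all genes.

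**Figure D4:**
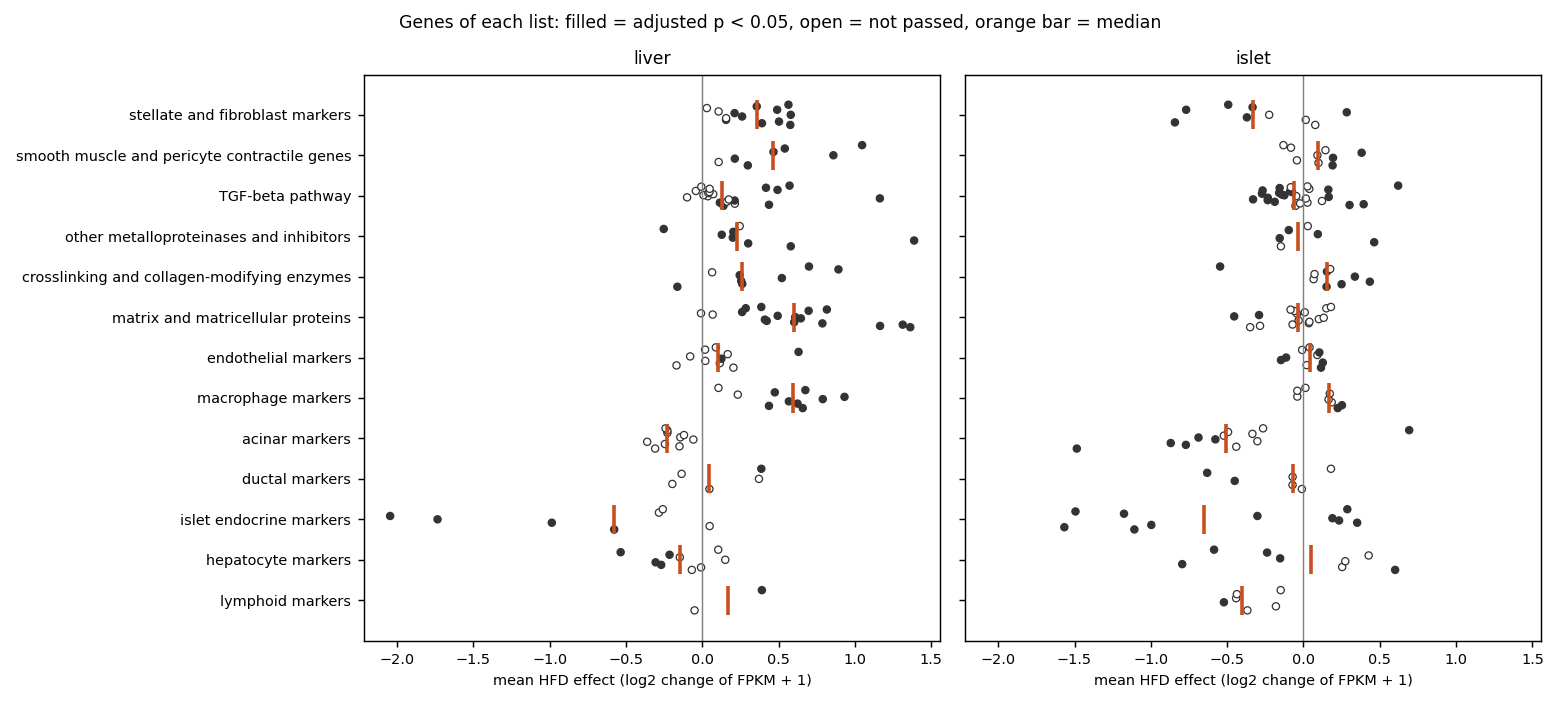
Mean HFD effect (x axis, log2 change on the log2(FPKM + 1) scale) of each tested gene of the 13 lists (y axis) in liver (left) and islets (right), where filled points passed at an adjusted p under 0.05, open points did not and orange bars are medians. The median of the matrix genes was 0.60 in liver and -0.04 in islets, and that of the stellate and fibroblast markers was 0.36 and -0.33.

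The part of other cell types in the members' values was not tested, and their markers are given here beside the 35.8% of all liver genes that rose and the 6.78% that fell. In liver 8 of 10 macrophage markers rose (median 0.60), led by Cd68, Cd14 and Adgre1, their summed level was 144 ± 51.9 FPKM in CD and 216 ± 83.9 in HFD mice, and C1qa was the most abundant at 37.9 FPKM. Of 10 endothelial markers 2 rose, Plvap and Flt1 (summed level 41.7 ± 12.2 and 52.4 ± 14.1 FPKM, most abundant Plvap at 22.5 FPKM), a share under that of all genes. Of 9 hepatocyte markers 4 fell, among them Cps1, Tat and Serpina1c, and the summed level was 60388 ± 9265 FPKM in CD and 57938 ± 8889 in HFD livers. Of 5 ductal markers tested, Spp1 rose (23.4 ± 7.17 to 36.8 ± 39.8 FPKM, with mouse HFD517 at 218.32), also a share under that of all genes. Of 2 lymphoid markers tested Ptprc rose, 0 of 10 acinar markers passed (Cela1 at 27.3 ± 10.2 and 25.8 ± 18.8 FPKM and Amy2a5 at 3.05 ± 7.78 and 1.24 ± 3.44 FPKM), and of 7 hormone markers 4 fell, among them Ins2, Ins1 and Iapp, and the mice with the highest sums of these, CD306 and CD407, are both CD.

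Of all islet genes, 16.6% rose and 22.0% fell, which the counts of islet markers are to be read against. The summed acinar markers were 42300 ± 34568 FPKM in CD and 21753 ± 12667 in HFD mice, with 5 of 12 lower (Amy2a5, Cela2a and Cela1 led) and Prss1 higher, and Amy2a5 was the most abundant at 11287 FPKM. All 10 hormone and endocrine markers passed, 4 higher and 6 lower, with Gcg and Sst among those that fell, and their sum was 695934 ± 77764 FPKM in CD and 793443 ± 98382 in HFD islets. Of the endothelial markers 3 rose (Esam, Cdh5 and Plvap) and 2 fell (Kdr and Flt1), and their sum was 201 ± 21.5 and 206 ± 21.8 FPKM, with Plvap at 83.3 FPKM the most abundant. Of 8 macrophage markers 2 rose (Adgre1 and C1qa), with sums of 86.8 ± 13.4 and 101.35 ± 28.3 FPKM. Of 6 ductal markers Muc1 and Krt19 fell, of 6 lymphoid markers Cd79a fell, and of 8 hepatocyte markers, several of which islets express, 4 fell (Ass1, Ttr and Hnf4a among them) and Alb rose. No marker was at 0 in every library. In islets Lrat, Cnn1, Itgb6, Clec4f, Cftr and Cd8a had means under 0.1 FPKM, and in liver Cnn1, Actg2, Cspg4, Prss1, Mafa, Cftr, Cd8a and Ms4a1 were among those that did. Clec4f, which marks Kupffer cells, was thus near 0 in islets and not in liver.

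Across mice, the members went together to different degrees once group means (by diet and week) had been taken out. These correlations are over the 48 libraries of a tissue, which share their scaling and cell mixture, and are given as a description. In liver the median r of the 36 pairs was 0.53, with 15 pairs at or above 0.6, the highest 0.82 for Sparc and Loxl2, and Mmp14 had no pair above 0.35. In islets the median of the 28 pairs was 0.54, with 11 at or above 0.6. The highest was 0.82 for Loxl1 and Mmp2, and Loxl2 had no pair above 0.23. Mmp14 in islets had r of 0.77 with Mmp2 and 0.77 with Timp2, where the liver values were 0.25 and 0.09.

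**Figure D5:**
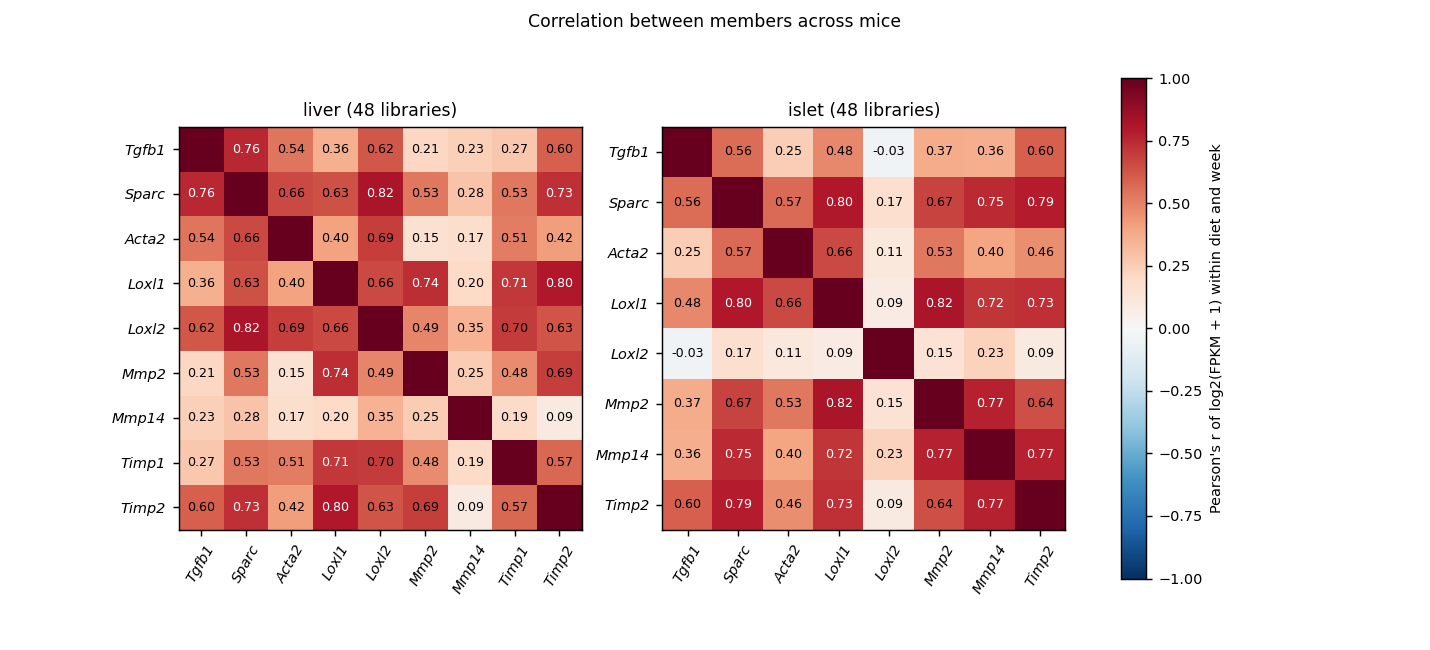
Pearson's r of log2(FPKM + 1) between members (rows and columns) over 48 liver (left) and 48 islet libraries (right), with group means taken out, on a color scale from -1 to 1. Mmp14 stood apart from the other members in liver and Loxl2 in islets.

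The genes most like each member by the same measure differed by tissue. In liver Sparc was nearest to Efemp2 (r = 0.89), Col3a1 (0.88) and Pkm (0.88), Loxl2 to Nid1 (0.89), Lamc1 (0.87) and Ckap4 (0.86), and Tgfb1 to Ppp1r9b (0.90), Rasip1 (0.89) and Renbp (0.87). Timp2 was nearest to Naglu (0.85), Bgn (0.85) and Ptrf (0.84), Timp1 to S100a6 (0.81) and Col5a2 (0.80), and Loxl1 to Timp2 (0.80). No gene reached 0.8 with Acta2, Mmp2 or Mmp14 in liver. In islets Sparc was near to Lhfp (0.89) and Col6a1 (0.87), Acta2 to the contractile genes Tagln (0.85) and Myl9 (0.80), and Timp2 to C1s1 (0.86) and Col14a1 (0.85). Mmp2 was nearest to Ptn (0.88), Bgn (0.87) and Crispld2 (0.87), Mmp14 to Bgn (0.88), Fstl1 (0.86) and Col6a1 (0.85), and Loxl1 to Col1a2 (0.88), Bgn (0.86) and Gdf10 (0.85), so the proteoglycan Bgn was near 3 islet members. Loxl2 was nearest to Nap1l4 (0.82) and Trappc11 (0.80), neither of which is a matrix gene, and Tgfb1 to Sipa1 (0.83).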

How the data were processed

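Poly(A) RNA was made into cDNA with random hexamers and sequenced on a BGISEQ-500. The authors deposited FPKM per gene and library, rounded to 2 decimals, for 96 libraries, and the submitters' processing notes name HISAT2 2.0.4, Bowtie2 2.2.5, RSEM 1.1.12, DESeq2 and GRCm38.p5. Reads mapped per library and the counting of strand are not given in the sources used here. The 24 columns of group means and 216 columns of the authors' own comparisons (fold changes, p-values) were not used.

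Log2(FPKM + 1) was fitted with limma 3.58.1 (R 4.3.3, mean-variance trend and robust variances), with Benjamini-Hochberg adjustment. Genes were kept that reached 1 FPKM in 4 or more libraries of the fit. With 1 mouse left out a weekly fit needed 3 of 7 libraries, and with 2 left out fewer, which loosened the filter. Weekly fits used 8 libraries, diet and age contrasts the 48 of a tissue, and tissue contrasts all 96. A fold change on this scale understates that of low genes. Each replicate is a separate mouse. The steps were tested on simulated data. The members and the 13 lists were chosen with earlier results of these data known. Named genes are all members, up to 3 genes with the smallest adjusted p per list and tissue (2 highest in level where none passed), and the 3 most correlated genes per member at r of at least 0.8. Col3a1, Bmp1, Reck, Prss1, Alb and, in islets, Plvap and Flt1 were named after their values were seen. Promoters were matched by symbol in RefSeq. Same-numbered islet and liver libraries come from the same mouse, and the within-mouse correlation of residuals was 0.0526. Other alternatives are given in the closing section, and leaving out 7 mice was chosen after seeing the data. Figures used Python 3.11.15 and matplotlib 3.10.9. A few genes that this rule names are not reported here.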

Additional observations from a re-analysis of the deposited data

Results flagged for a closer look

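The HFD effect differed between islets and liver for 7 of the 9 members tested, with the islet effect the lower in each. Of all 13346 genes tested, 35.5% had a lower and 8.42% a higher effect in islets. By limma, the difference of the log2 effects (islet minus liver) was -0.81 for Timp1, -0.65 for Sparc, -0.53 for Loxl1, -0.51 for Timp2, -0.41 for Mmp2, -0.40 for Tgfb1 and -0.29 for Loxl2. The filter let Timp1 in mainly through HFD livers, with 1 FPKM reached in 0 islet and 13 liver libraries, 11 of them HFD. With no filter its difference was -0.81 (limma, adjusted p = 4.38e-08). With Ins1 and Ins2 left out of the libraries of both tissues and the rest rescaled, the differences of Loxl2 and Tgfb1 did not pass. The share with a higher islet effect among all genes that passed then went from 19.2% to 67.4%.

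A single mouse lay far from the other 3 of its group in 12 of 162 groups that held a library of at least 1 FPKM, where chance flags about 1 in 20 groups. In liver these were Timp1 in mice CD304 (1.19 FPKM, week 12) and CD502 (1.76 FPKM, week 20), Timp2 in mice CD502 (4.54 FPKM, week 20) and CD601 (4.46 FPKM, week 24), all above their group, and Tgfb1 in mouse HFD411 (1.93 FPKM, week 16), below it. Mice CD304 and CD502 also held the highest Krt19 of all liver libraries, whose part in their Timp1 values was not tested. In islets they were Acta2 in mice HFD113 (7.32 FPKM, week 4) and HFD516 (5.31 FPKM, week 20), Loxl2 in mice HFD517 (9.12 FPKM, week 20) and HFD616 (13.25 FPKM, week 24), Mmp14 in mouse HFD418 (0.93 FPKM, week 16), and Tgfb1 in mice CD203 (5.51 FPKM, week 8) and HFD511 (4.27 FPKM, week 20).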

How the results depend on the processing

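The liver effect over all weeks had 7 calls, as with a pseudocount of 0.1 FPKM, without the mean-variance trend and robust variances, and without the 7 mice that stood apart. It had 8 with no filter and with median ratio scaling, and 7 to 8 with a mouse left out. No liver member reached an absolute log2 change of 1 in it. Rescaling without Ins1 and Ins2 moved the median of all liver genes in it from 0.0765 to 0.076, and the liver members were not counted again under it. The 3 weekly calls in liver became 5 with no filter and 6 with all 12 groups in one fit, and ranged from 2 to 5 with a mouse left out (5 without mouse HFD518, 2 without mouse CD308). The 2 weekly calls in islets became 4 with median ratio scaling, 7 with Ins1 and Ins2 left out, 4 in one fit, 0 at an absolute log2 change of at least 1, and 1 without the 7 mice, and ranged from 1 to 4 (1 without mouse CD306). The 3 islet calls over all weeks became 2 with no filter, where Timp2 was lost, 5 with median ratio scaling and 1 without the 7 mice, and ranged from 1 (without mouse CD106) to 4. The 5 islet calls over time on chow became 6 with median ratio scaling, where Timp2 was added, and 3 without the 7 mice and ranged from 3 (without mouse CD106) to 5, and the single liver call became 2. The late minus early contrast in islets had 0 calls and ranged from 0 to 1, where Sparc passed without any of 5 mice. With Ins1 and Ins2 left out the islet effect of Timp2 turned from -0.14 to 0.030 and the islet minus liver difference of Mmp2 from -0.13 to 0.61. With the pseudocount of 0.1 FPKM the islet minus liver difference had 8 calls in place of 6, where Mmp2 (-0.39, limma, adjusted p = 0.0306) and Timp1 (0.57, adjusted p = 0.00649) were added, and the other counts were as with 1 FPKM. The cause of these changes was not tested, beyond the fewer mice or genes that an alternative leaves.

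With the mouse as a replicate block, 6 members differed between tissues in CD and 7 in the HFD effect, and the block changed no call. FPKM at 2 decimals and with no counts leave the precision of Lox, Timp1, Loxl1 and Mmp2, all near or under 1 FPKM, unknown.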
